A study of Caenorhabditis elegans with 3 samples.

Results

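The genes described here encode Argonaute proteins and the factors that make, amplify, carry and use small RNAs in the nematode Caenorhabditis elegans. They were chosen by name from a list of 45 genes, through the platform annotation of the array and the current gene table. Rows for 39 of the 45 were found, among 14795 named genes and 19731 features tested in all. The genes eri-5, ppw-1, ppw-2, rde-10, rde-11 and rrf-1 had no row of their own and were not analysed here. Rows that the annotation gives to ppw-1 and sago-2 together, or to rde-11 together with another gene, were assigned to neither. The gene mut-2 was found under its other name, rde-3.

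Total RNA of fem-1(lf) animals was compared with that of fem-3(gf) animals on 3 arrays of 2 colours, each with 1 preparation of either genotype (preps 1 to 3). A loss of fem-1 function leaves hermaphrodites with oocytes and no sperm, and a gain of fem-3 function leaves them with sperm and no oocytes. The labels give no strain, other allele, age, temperature or dye. Nothing in them ties the preps to different cultures, and the p-values therefore cover array-to-array spread alone, possibly technical. A positive log2 ratio is read as a higher level in fem-1(lf). That direction is likely rather than stated, and rests on the order of the genotypes in the descriptions and on fem-1(lf) being the source of the second channel.

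The marker genes of the gametes lay on the sides that the genotypes name. All 10 sperm markers were higher in fem-3(gf) by the limma test (means between -6.63 and -1.63), and all 9 measured oocyte markers were higher in fem-1(lf) (2.097 to 3.49). Of 9 measured genes used by the germline of either sex, 7 had a higher level in fem-1(lf) and 2 did not pass, with a median of 0.79. The medians of the muscle, intestine, cuticle and neuron markers were -0.42, -0.55, -0.29 and -0.47. The part that these shifts play in the values below was not tested. In RNA of many cells, fewer cells of a type and less RNA per cell cannot be told apart. The mutated genes were at 0.04 ± 0.21 (SD, n = 3) for fem-1 and 1.76 ± 0.38 for fem-3. Whether either mutation removes the probed sequence is not given, and these levels are no check of the labels.

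Argonautes are proteins that hold a small RNA and use it to find a matching target RNA. In C. elegans, primary small RNAs are cut by Dicer or, as with the 21U-RNAs of the Piwi pathway, transcribed singly. Many of them recruit RNA-dependent RNA polymerases, which copy the target into secondary 22G-RNAs that load onto a large worm-specific group of Argonautes. The germline uses these pathways to silence foreign sequences, to license its own genes, and to pass silencing to the offspring. The 26G-RNAs form separate classes in spermatogenesis and in oocytes and embryos, bound by different Argonautes.

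More of the pathway genes passed the test with fem-1(lf) above than with fem-3(gf) above, and the Argonaute gene alg-3 lay far on the latter side. Of the 39 measured genes, 17 had a higher level in fem-1(lf) and 3 had a higher level in fem-3(gf) (limma, adjusted p under 0.05), and 19 were not called. Over all features tested, 21.0% passed with a higher level in fem-1(lf) and 23.7% with one in fem-3(gf), against 43.6% and 7.69% of these genes. At 2-fold or more, 9 genes were called with fem-1(lf) above and 2 with fem-3(gf) above, and the shares over all features were 8.43% and 10.2%. One of these 2, alg-4, reaches 2-fold as the mean of 2 rows at -0.62 and -5.84. The median log2 ratio was 0.36, against -0.10 over all features. Of the 39 means 31 were above 0, as were 8362 of the 19731 over all features. The sign was the same on all 3 arrays for 37 of the 39, and for 13973 of the 19731 features. The medians of the 39 genes on the arrays of preps 1, 2 and 3 were 0.46, 0.28 and 0.39.

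**Figure D1:**
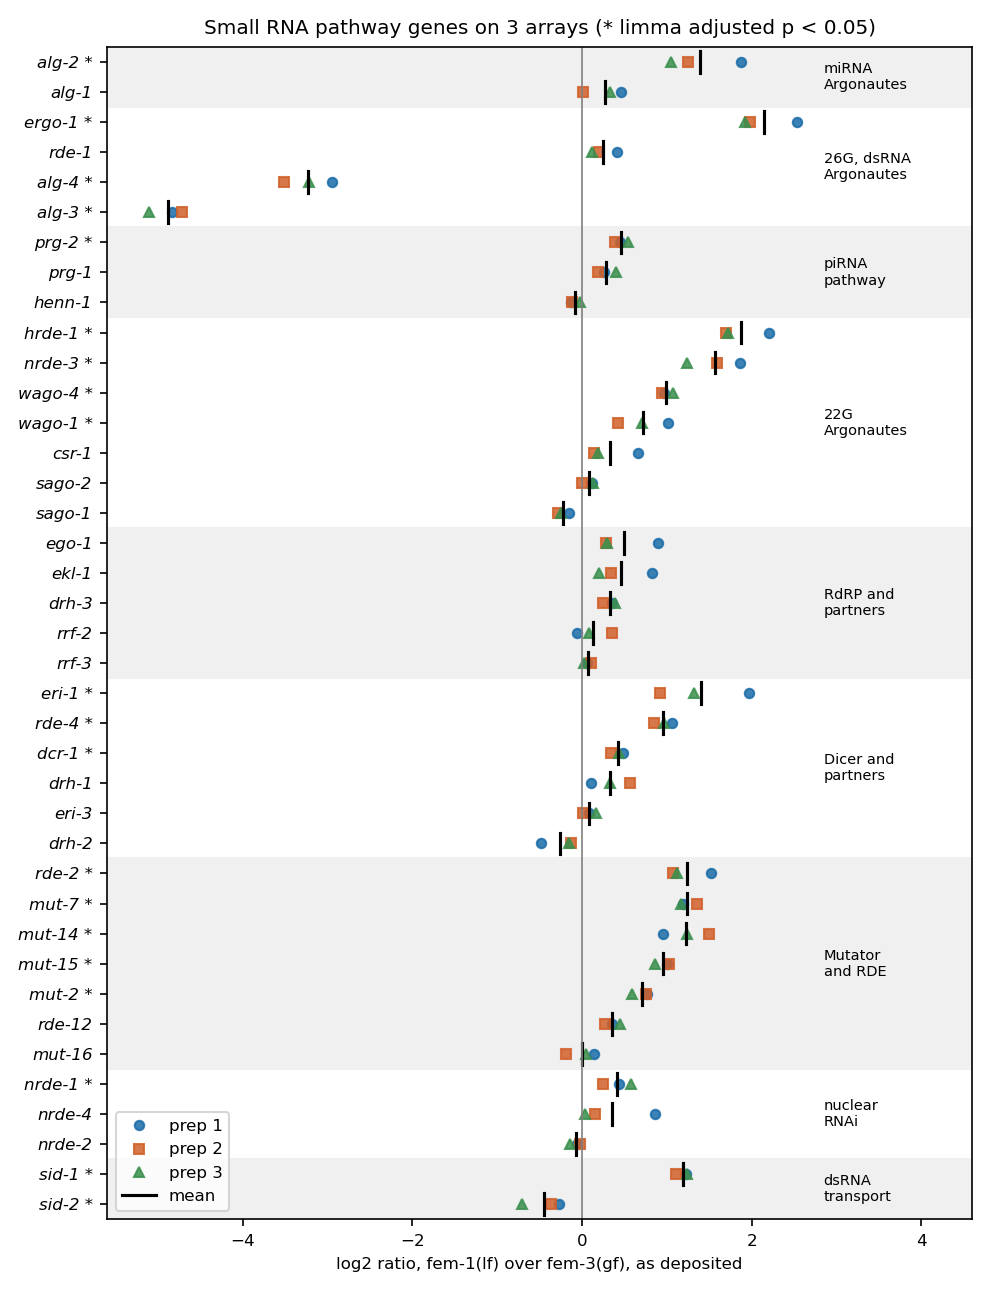
Log2 ratios of fem-1(lf) over fem-3(gf) as deposited (x axis) for 39 small RNA pathway genes grouped by role, with a point for each of 3 arrays, a black line at the mean and a star for a limma adjusted p under 0.05. The genes alg-3 and alg-4 (the mean of its 2 rows) lie below -2.9 on every array, and ergo-1 lies between 1.93 and 2.54.

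The place of 0 on the ratio scale matters for the genes of small ratio. Centring each array on its median gave 23 genes with fem-1(lf) above and 2 with fem-3(gf) above, with 23.8% and 18.3% of all features called on these sides. Centring on 37 muscle, intestine, cuticle and neuron markers gave 31 and 2, with 37.7% and 11.2% of all features. That choice moved the median of all features from -0.10 to 0.30. The 17 genes called as deposited were also called under both centrings.

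**Figure D2:**
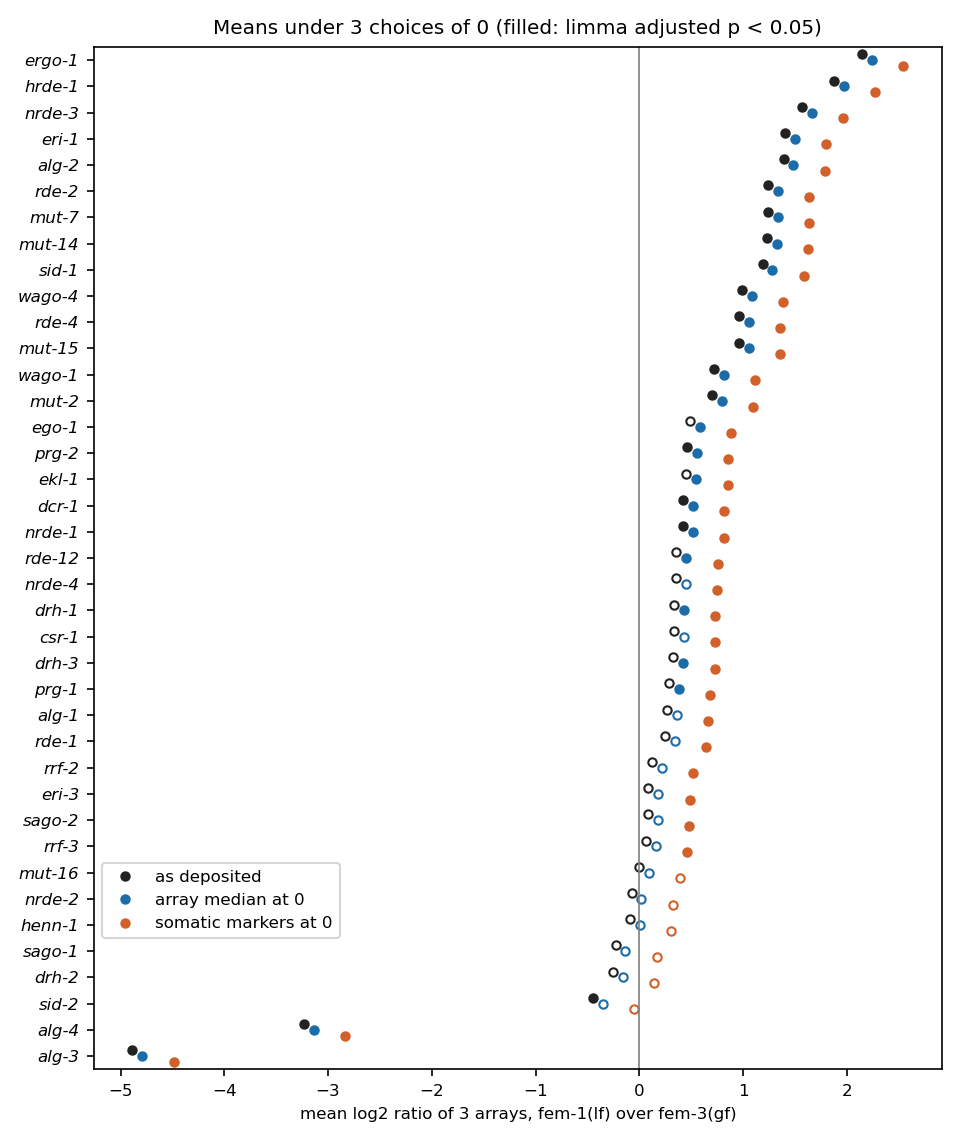
Mean log2 ratio over 3 arrays (x axis) of each of 39 genes as deposited, with each array's median at 0, and with the somatic marker genes at 0. Filled points have a limma adjusted p under 0.05, and the number of genes called higher in fem-1(lf) goes from 17 to 23 and 31.

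The Argonautes of the 26G-RNAs lay at opposite ends. ALG-3 and its close relative ALG-4 bind the 26G-RNAs of spermatogenesis, and ERGO-1 binds those of oocytes and embryos. The log2 ratios of alg-3, on chromosome IV, were -4.84, -4.72 and -5.11 on the arrays of preps 1, 2 and 3. Its mean of -4.89 ± 0.20 (SD, n = 3) is a 29.6-fold higher level in fem-3(gf) (limma adjusted p = 1.185e-05), and 220 of 19731 features had a lower ratio. The values of alg-3 are close together on the 3 arrays and far from 0 on each.

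The ratios of ergo-1, on chromosome V, were 2.54, 1.98 and 1.93, with prep 1 the highest. The mean of 2.15 ± 0.34 (SD, n = 3) is a 4.44-fold higher level in fem-1(lf) (limma adjusted p = 0.0002862). It was the highest of the 39 genes, and 146 features had a higher ratio. The 2 rows of ergo-1 gave 2.15 each. Within each array the ratio of ergo-1 exceeded that of alg-3 by 7.38, 6.70 and 7.03, a difference that the choice of 0 does not touch. With 3 arrays an exact permutation test of such a difference cannot go below p = 0.25, and it gave that value for this pair.

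The gene alg-4, on chromosome III, was measured by 2 rows that disagree. One row gave -0.52, -0.40 and -0.93 (mean -0.62 ± 0.28, SD, n = 3), and the other gave -5.38, -6.64 and -5.51 (mean -5.84 ± 0.70). The annotation pairs both with the same accessions, so the files do not say why they differ. Whether either row also reports alg-3, the close relative, was not tested. Each row alone was called higher in fem-3(gf), with limma adjusted p = 0.02012 for the first and 3.703e-05 for the second. Their average, -3.23 ± 0.28, lies at neither level. As deposited, the direction of alg-4 is thus shared by both rows, while its size depends on the row by 5.23 on the log2 scale. The somatic markers had medians of -0.56, -0.37 and -0.26 on the arrays of preps 1, 2 and 3. The rows were not tested alone after centring, so the direction of the first row holds for the deposited 0 only.

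RDE-1, the Argonaute that takes up small RNAs cut from foreign double-stranded RNA, stood near the middle. The ratios of rde-1 were 0.42, 0.20 and 0.12, all above 0 but small. Its mean of 0.25 ± 0.15 (SD, n = 3) was not called (limma adjusted p = 0.15), with a 95% limma interval of -0.06 to 0.55.

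**Figure D3:**
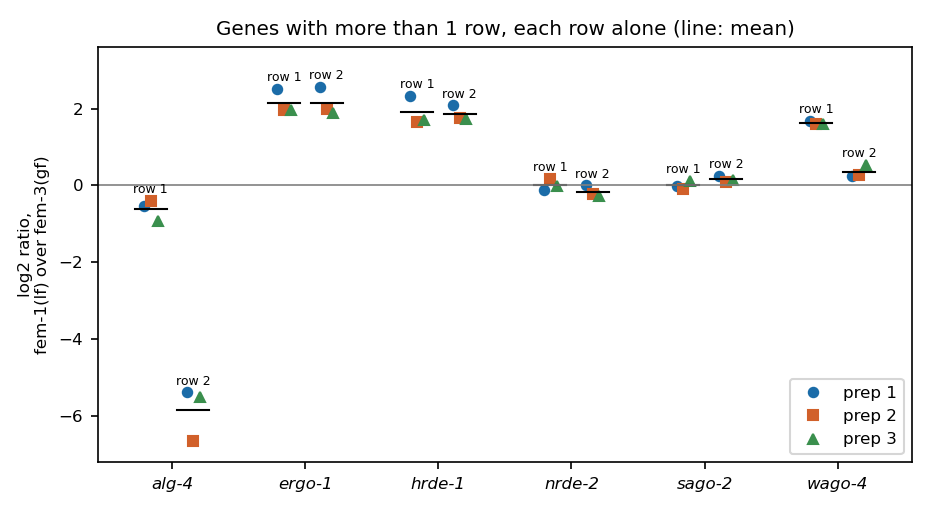
Log2 ratios (y axis) of each row of the 6 genes with 2 rows, with a point per array and a line at the row's mean. The rows of ergo-1, hrde-1, nrde-2 and sago-2 differ by at most 0.19, those of wago-4 by 1.27 and those of alg-4 by 5.23.

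The microRNA Argonautes, ALG-1 and ALG-2, are close relatives with overlapping functions in development. The ratios of alg-2 were 1.88, 1.24 and 1.05, with a mean of 1.39 ± 0.43 (SD, n = 3), a 2.62-fold higher level in fem-1(lf) (limma adjusted p = 0.002434). Those of alg-1, on the X chromosome, were 0.46, 0.02 and 0.33, and the mean of 0.27 ± 0.23 was not called (limma adjusted p = 0.16). On every array the ratio of alg-2 was above that of alg-1, by 1.41, 1.23 and 0.72 (exact permutation p = 0.25, n = 3, the smallest possible). Whether the row of either gene also reports the other was not tested. The gene alg-1 was called after centring on the somatic markers (0.67) but not after centring on the array median.

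The Piwi Argonaute genes and henn-1 had small ratios. PRG-1 binds the 21U-RNAs of the germline, PRG-2 is its near copy, and HENN-1 methylates the ends of 21U-RNAs and of ERGO-1-bound 26G-RNAs. The ratios of prg-1 were 0.26, 0.19 and 0.40 (mean 0.28 ± 0.11, SD, n = 3, limma adjusted p = 0.099), and those of prg-2 were 0.45, 0.39 and 0.54 (mean 0.46 ± 0.07, adjusted p = 0.0226). Only prg-2 was called as deposited, and without prep 2 or prep 3 its call was lost. The pair differed by 0.18 on average, and the sequences are so alike that a spot may report both genes. The gene henn-1 was at -0.09 ± 0.06 and was not called, and its mean was above 0 after centring on the array median or on the somatic markers.

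Among the Argonautes of the secondary 22G-RNAs, the nuclear ones had high ratios. HRDE-1 acts in germ cell nuclei and carries inherited silencing across generations, and NRDE-3 carries 22G-RNAs into the nuclei of somatic cells. The ratios of hrde-1, on chromosome III, were 2.21, 1.70 and 1.72, with prep 1 the highest. Its mean of 1.88 ± 0.29 (SD, n = 3) is a 3.67-fold higher level in fem-1(lf) (limma adjusted p = 0.0003567), and its 2 rows gave 1.90 and 1.85. Those of nrde-3, on the X chromosome, were 1.87, 1.59 and 1.24, with a mean of 1.57 ± 0.32, or 2.96-fold (adjusted p = 0.0008176). Both genes were above 1.2 on every array.

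WAGO-1, a germ granule Argonaute that silences genes, and WAGO-4, which takes part in the inheritance of RNA interference, were both called higher in fem-1(lf). The ratios of wago-1 were 1.02, 0.43 and 0.71, with a mean of 0.72 ± 0.29 (SD, n = 3, limma adjusted p = 0.01261), and without prep 3 it was no longer called. Those of wago-4 were 0.96, 0.94 and 1.07, with a mean of 0.99 ± 0.07 (adjusted p = 0.001403). This steady average joins 2 rows that disagree: one gave 1.69, 1.59 and 1.60 (adjusted p = 0.0002154 alone), and the other 0.24, 0.28 and 0.54 (adjusted p = 0.068 alone). The level of wago-4 is therefore called by one of its rows and not by the other.

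CSR-1, whose 22G-RNAs match genes expressed in the germline and which is required for fertility, was not called. The ratios of csr-1 were 0.66, 0.14 and 0.19, with prep 1 apart from the others, and the mean was 0.33 ± 0.29 (SD, n = 3, limma adjusted p = 0.12). On each array hrde-1 was above csr-1 by nearly the same amount, 1.55, 1.56 and 1.52 (exact permutation p = 0.25, n = 3). The secondary Argonautes sago-1 and sago-2 were at -0.23 ± 0.07 and 0.08 ± 0.07, and neither was called. Of the 7 measured genes of this group, 4 were called higher in fem-1(lf), none was called higher in fem-3(gf), and 3 were not called. Over all features, 21.0% and 23.7% were called on these sides, and a group of 7 is too small to set against these shares.

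No measured RNA-dependent RNA polymerase or partner was called as deposited. Over all features 44.7% were called in either direction, and a group of 5 measured genes is too small to set against that share. EGO-1 makes 22G-RNAs in the germline together with the helicase DRH-3 and the Tudor-domain protein EKL-1, and RRF-3 makes the 26G-RNAs. The ratios of ego-1 were 0.89, 0.28 and 0.30, and those of ekl-1 were 0.83, 0.34 and 0.20, with prep 1 the highest in both. Those of drh-3 were 0.35, 0.25 and 0.39. Their means were 0.49 ± 0.35, 0.46 ± 0.33 and 0.33 ± 0.07 (SD, n = 3), with limma adjusted p between 0.056 and 0.065, and unadjusted p of 0.026, 0.031 and 0.030. All 3 were called higher in fem-1(lf) once the arrays were centred on their medians. The polymerase genes rrf-3 and rrf-2 were at 0.07 ± 0.04 and 0.13 ± 0.21, and the 95% limma interval of rrf-3 ran from -0.21 to 0.35.

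Dicer and its partners differed among themselves. DCR-1 cuts double-stranded RNA, RDE-4 is the double-stranded RNA-binding protein that works with it on foreign RNA, and the exonuclease ERI-1 and the protein ERI-3 join it in the ERI complex that makes 26G-RNAs. The ratios of eri-1, on chromosome IV, were 1.97, 0.93 and 1.32, widely spread but high on every array, with a mean of 1.40 ± 0.52 (SD, n = 3), or 2.65-fold (limma adjusted p = 0.003919). Those of rde-4 were 1.07, 0.85 and 0.97 (mean 0.96 ± 0.11, adjusted p = 0.001789).

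The ratios of dcr-1 were 0.49, 0.34 and 0.43, and its mean of 0.42 ± 0.07 (SD, n = 3) passed narrowly (limma adjusted p = 0.03067) and failed when any array was left out. By contrast eri-3, at 0.08, 0.01 and 0.17, was near 0 on all arrays (mean 0.09 ± 0.08, adjusted p = 0.56). Within the arrays eri-1 was above eri-3 by 1.88, 0.91 and 1.15, and above rrf-3 by 1.90, 0.82 and 1.29 (exact permutation p = 0.25 for each, n = 3). The ratio of eri-1 was thus above those of eri-3 and rrf-3 by 0.82 or more on each array. The antiviral helicase gene drh-1 and its paralogue drh-2 were at 0.33 ± 0.23 and -0.26 ± 0.20, neither called, and are alike enough in sequence that a spot may report both.

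The Mutator proteins gather in germ granules and amplify 22G-RNAs, and most of their genes were higher in fem-1(lf). MUT-7 has an exonuclease domain and binds RDE-2, MUT-14 is a DEAD-box helicase, MUT-2 adds nucleotides to the ends of target RNAs, and MUT-16 is the scaffold on which the others assemble. The ratios of mut-7 were 1.19, 1.36 and 1.17 (mean 1.24 ± 0.10, SD, n = 3, 2.36-fold, limma adjusted p = 0.0006873). Those of rde-2 were 1.52, 1.08 and 1.12 (mean 1.24 ± 0.24, adjusted p = 0.001294), and those of mut-14 were 0.96, 1.49 and 1.24 (mean 1.23 ± 0.27, adjusted p = 0.001509). These 3 genes had almost the same mean.

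The ratios of mut-15, another Mutator gene, were 1.00, 1.02 and 0.86 (mean 0.96 ± 0.09, SD, n = 3, limma adjusted p = 0.001671), and those of mut-2 were 0.77, 0.75 and 0.59 (mean 0.70 ± 0.10, adjusted p = 0.005533). The scaffold gene mut-16 was the exception, at 0.14, -0.19 and 0.05, with signs that differ between arrays. Its mean of -0.0004 ± 0.17 had a 95% limma interval of -0.31 to 0.31. The ratio of mut-7 exceeded that of mut-16 by 1.05, 1.55 and 1.12, that of rde-2 by 1.38, 1.27 and 1.07, and that of mut-14 by 0.82, 1.68 and 1.19 (exact permutation p = 0.25 for each, n = 3). The helicase gene rde-12 was at 0.36 ± 0.09 and just missed the threshold (adjusted p = 0.05128). In this group 5 of 7 measured genes were called higher in fem-1(lf), against 21.0% of all features, with a median of 0.96 against -0.10.

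The factors that act in the nucleus with HRDE-1 and NRDE-3 had lower ratios than those Argonautes. NRDE-2, NRDE-1 and NRDE-4 act on nascent transcripts and chromatin at the target gene. The ratios of nrde-1 were 0.44, 0.24 and 0.58 (mean 0.42 ± 0.17, SD, n = 3, limma adjusted p = 0.04125), a call that was lost when any array was left out. The ratios of nrde-4 were 0.87, 0.16 and 0.04, so that its mean of 0.35 ± 0.45 rests mostly on prep 1, and it was not called. The gene nrde-2 was at -0.07 ± 0.07, and was above 0 after either centring. On every array nrde-3 was above nrde-2, by 1.92, 1.61 and 1.39 (exact permutation p = 0.25, n = 3).

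The transport proteins of double-stranded RNA were called on opposite sides. SID-1 lets double-stranded RNA cross cell membranes, and SID-2 takes it up from the lumen of the intestine. The ratios of sid-1, on chromosome V, were 1.22, 1.11 and 1.24, close together, with a mean of 1.19 ± 0.07 (SD, n = 3), or 2.28-fold (limma adjusted p = 0.0007294). Those of sid-2 were -0.27, -0.36 and -0.71, with a mean of -0.45 ± 0.23 (adjusted p = 0.04323). The call of sid-2 was lost without prep 2 or prep 3 and after either centring, where it reached -0.05 with the somatic markers at 0. The intestine markers had a median of -0.55, and the part of that shift in the value of sid-2 was not tested.

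**Figure D4:**
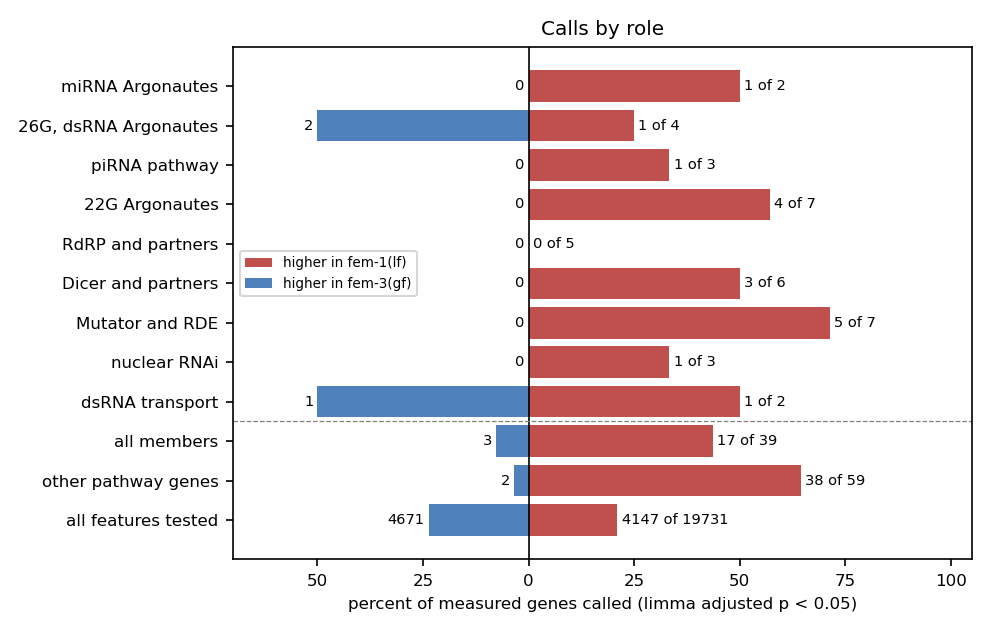
Percent of measured genes called by limma (x axis, to the right higher in fem-1(lf), to the left higher in fem-3(gf)) for each role, for all 39 genes, for 59 other small RNA pathway genes and for all features, with counts at the bars. The Mutator and RDE group has 5 of 7 called higher in fem-1(lf) and the polymerase group 0 of 5. Groups of 7 and 5 genes are too small to set against each other or against all features.

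A second list of small RNA pathway genes, outside the 45, was also examined. It was chosen with earlier results of these data known, so its shares are no separate support for the pattern. Of 72 genes, 59 were measured, 38 were higher in fem-1(lf), 2 were higher in fem-3(gf) and 19 were not called. These are 64.4% and 3.39% of the measured genes, against 21.0% and 23.7% of all features, and the median log2 ratio was 0.68. The highest ratios called were those of rde-8, an endonuclease gene of the Mutator group, at 1.92 ± 0.46 (SD, n = 3), and tost-1, which encodes a subunit of the PETISCO complex, at 1.63 ± 0.41. They were followed by ekl-5 at 1.61 ± 0.59 and gfl-1 at 1.54 ± 0.42 (limma adjusted p between 0.000849 and 0.003238 for these 4). On the other side was wago-10, another gene of the worm-specific Argonautes, at -3.76, -2.97 and -4.29. Its mean of -3.67 ± 0.67 is a 12.7-fold higher level in fem-3(gf) (adjusted p = 0.0002089). The gene parn-1, whose product trims the ends of 21U-RNAs, was at -0.71 ± 0.18 (adjusted p = 0.007473), and was not called after centring on the somatic markers (-0.31).

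The uncalled genes were all of small ratio. Their means lay between -0.26 and 0.49, and the widest 95% limma interval among them reached 0.47 to either side. Of these 19, 4 had an unadjusted p under 0.05. Of the 39 genes, 20 had their highest value on the array of prep 1, as did 10 of the 17 called higher in fem-1(lf). Among all 4147 features called on that side the share was 65.1%, and the spread of all ratios was also widest on that array (SD 1.34, against 1.13 and 1.20). The 20 called genes lay on all chromosomes. Their place among all features is shown by the plot of the distribution.

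**Figure D5:**
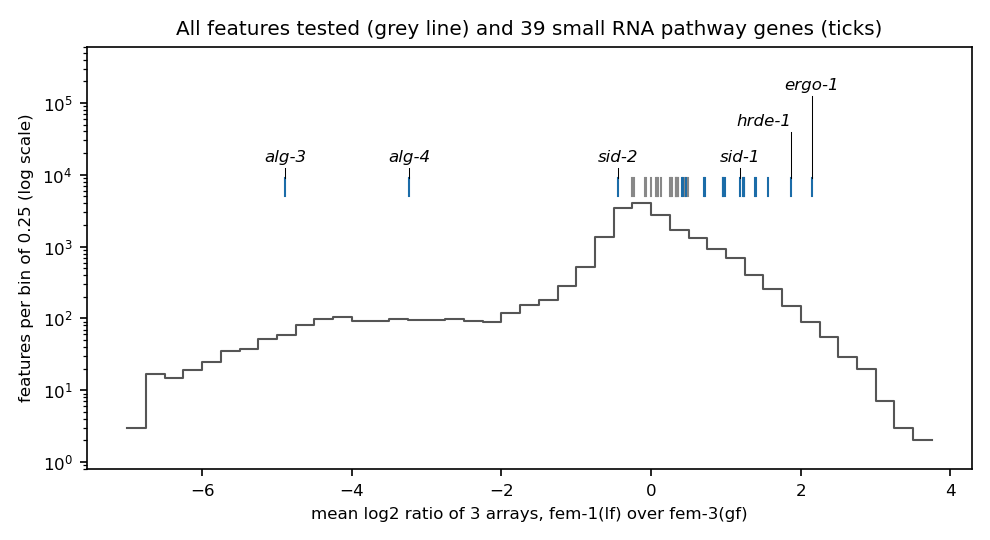
Number of features per bin of 0.25 (y axis, log scale) by mean log2 ratio over 3 arrays (x axis), for all 19731 features (grey line), with ticks for the 39 small RNA pathway genes (blue where limma adjusted p is under 0.05). The tick of alg-3 lies in the long left tail, and that of alg-4 is the mean of 2 rows at -0.62 and -5.84. Of the 39 means 31 lie above 0, as do 8362 of the 19731 over all features.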

How the data were processed

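RNA of fem-1(lf) and fem-3(gf) animals was compared on 3 arrays, which form 1 group. The authors deposited 1 log2 ratio per row and array, the second channel likely over the first. Base 2 was inferred: raised to that base, all but 4 of 64209 values are whole thousandths (tolerance 0.01). How the authors scaled the arrays, subtracted background or removed dim spots is not given in the sources used here, and neither is the dye of each channel, so spot intensities were not used and dye effects cannot be taken out. The number of arrays limits the precision.

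The 21611 rows took names from GEO's platform annotation, updated with RefSeq's WBcel235 table by gene ID (16360 rows) or accession (8). Where a gene had several rows, their mean was used on each array. Features with a value on all 3 arrays (19731) were fitted as deposited with limma 3.58.1 in R 4.3.3 (lmFit with an intercept against 0, eBayes, two-sided, Benjamini-Hochberg adjusted over all features, called under 0.05). The fit was tested on simulated data. No filter on low values was applied, and all 39 genes found were tested. The 19 partner differences were taken within each array and tested with an exact two-sided permutation test (scipy 1.17.1) that gave 0.25 for each, before and after adjustment over the 19. Figures used matplotlib 3.10.9.

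The genes, their roles, the second list and the pairs were chosen with earlier results of these data known. The rule was to name all measured genes of the set, and of the second list the 4 highest called on each side. Alternatives tried were centring on the array median or on somatic markers, equal spread, features on at least 2 arrays, robust variances, each row alone, a threshold of 0.01, limma treat at 1.5-fold and leaving out each array.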

Additional observations from a re-analysis of the deposited data

How the results depend on the processing

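Of the 20 calls, 15 held under the 8 alternatives of scaling, filtering, variance model and left-out array. The genes dcr-1, nrde-1, prg-2, wago-1 and sid-2 lost theirs under at least 1 of them. Of the 15, mut-15, mut-2 and rde-4 were not called under limma treat, and wago-4 was not called by its second row alone. Leaving out each array gave 13 to 15 calls with fem-1(lf) above and 2 or 3 with fem-3(gf) above, with medians of 0.32 to 0.45. The median was 0.45 after centring on the array median, 0.45 with equal spread and 0.76 with the somatic markers at 0, where 31 genes were called with fem-1(lf) above, while in the second list 1 was higher in fem-3(gf). Under limma treat 10 genes were called with fem-1(lf) above, while in the second list 14 and 1 were called on the 2 sides. Over all features the calls with fem-1(lf) above, then fem-3(gf), were 7437 and 2211 with somatic centring, 2699 and 2544 at an adjusted p under 0.01, 1431 and 1814 under treat, and 2933 to 4032 and 2763 to 4070 with an array left out, both lowest without prep 3. Stricter thresholds call fewer features by construction, and why fewer were called with an array left out was not tested.

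Uncalled genes changed sign. With each array's median at 0, henn-1 was at 0.0068, mut-16 at 0.094 and nrde-2 at 0.021, and with equal spread at 0.0056, 0.088 and 0.021. With the somatic markers at 0, drh-2 was at 0.14, henn-1 at 0.31, mut-16 at 0.40, nrde-2 at 0.32 and sago-1 at 0.17. Without an array mut-16 ranged from -0.071 to 0.095, and the first row of nrde-2 alone was at 0.019. These follow from a moved 0 or from values near 0. No separate paired analysis was run, because both genotypes share each array and the ratio tested is already within the pair.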

Other observations

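The genes alg-5 and smut-1, of these families and chosen after their values were seen, were also higher in fem-1(lf). The Argonaute gene wago-10 of the second list lay on the other side, at -3.67. The Argonaute gene alg-5 was at 2.10, 1.97 and 1.89 on the arrays of preps 1, 2 and 3, with a mean of 1.99 ± 0.11 (SD, n = 3), or 3.96-fold (limma adjusted p = 0.0001101). That places it between ergo-1 and hrde-1. The gene smut-1, a paralogue of the helicase gene mut-14, was at 1.07, 1.41 and 1.15, with a mean of 1.21 ± 0.18 (adjusted p = 0.0009984), close to the mean of mut-14 at 1.23. Both are similar in sequence, and cross-hybridisation between their spots is possible.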
